A study of Sus scrofa with 599 samples.

Results

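Matrix metalloproteinases (MMPs), their tissue inhibitors (TIMPs) and related enzymes were followed in 4 adipose tissues (ATs) of pigs under 3 nutritional conditions. The set held 10 genes listed by symbol, namely MMP2, MMP9, MMP14, MMP19, TIMP1, TIMP2, TIMP3, TIMP4, ADAMTS1 and ADAM28. The table of protein-coding genes (PCGs) holds 21280 genes, 14821 of them with a symbol, and 9 of the 10 symbols matched a row. TIMP2 matched none, so its expression is not analysed here and it is described only by its position, compartment and enhancer state.

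MMPs are zinc-dependent endopeptidases that cut collagens, gelatin and other proteins of the extracellular matrix, and most are made as inactive proenzymes that are activated outside the cell. TIMPs bind the active site of MMPs, and the balance of both sets how fast matrix is turned over when fat tissue expands, forms vessels or becomes fibrotic. ADAMTS1 is a secreted protease that cuts proteoglycans such as versican and aggrecan, and ADAM28 is a metalloproteinase with a disintegrin domain known from lymphocytes.

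All libraries came from physically mature female Bama pigs, a miniature breed, which were first fed a normal diet and were fasted overnight before they were killed. The normal condition (NC) group stayed on the normal diet, the weight gain (WG) group received a high-fat diet, and the weight loss (WL) group was a randomly chosen part of the high-fat animals that was afterwards held to a small fraction of the normal caloric intake. WL pigs were therefore killed later and at a higher age than the others, and age and weight loss cannot be told apart. The ATs were 1 subcutaneous AT (SAT), the upper layer of backfat (ULB), and 3 visceral ATs (VATs), from the greater omentum (GOM), the mesentery (MAD, mesenteric) and the retroperitoneum (RAD, retroperitoneal). Total RNA-seq gave 9 NC, 45 WG and 10 WL libraries in GOM, 12, 36 and 10 in MAD, 12, 39 and 10 in RAD, and 5, 38 and 10 in ULB. Each AT was cut from each carcass, so ATs share pigs and comparisons between ATs are not between independent animals. The labels number the replicates but do not say whether a number marks 1 pig in every AT.

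Between 3337098 and 22939420 estimated counts fell on PCGs in a library. PCGs held 65.6% to 96.9% of the length-scaled transcript abundance (TPM) of a library and non-coding transcripts the rest, and this share moved with the nutritional condition. It was below 88% in 17 of 38 NC, 6 of 158 WG and 17 of 40 WL libraries. The 6 adipocyte markers (ADIPOQ, PLIN1, CIDEC, LEP, FABP4 and LPL) were detected in every group, and their summed TPM had a median from 7982 in NC GOM to 22826 in WL RAD. Of the other marker lists, the group medians of the summed TPM ran from 2133 to 9760.2 for fibroblasts and progenitors, 247 to 715 for macrophages, 34.5 to 267 for neutrophils, 11.9 to 47.3 for T cells, 12.4 to 20.5 for B cells, 419 to 718 for endothelium, 203 to 600.2 for smooth muscle and pericytes, and 0.865 to 4.204 for skeletal muscle. KRT8, the only marker of mesothelium that matched a row, had group medians from 101.7 to 187 TPM in GOM and from 1.33 to 8.96 TPM elsewhere. The lists are named by the cells they mark, not by a measured cell count, and in bulk tissue fewer cells of a type and less RNA per cell cannot be told apart.

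**Figure D1:**
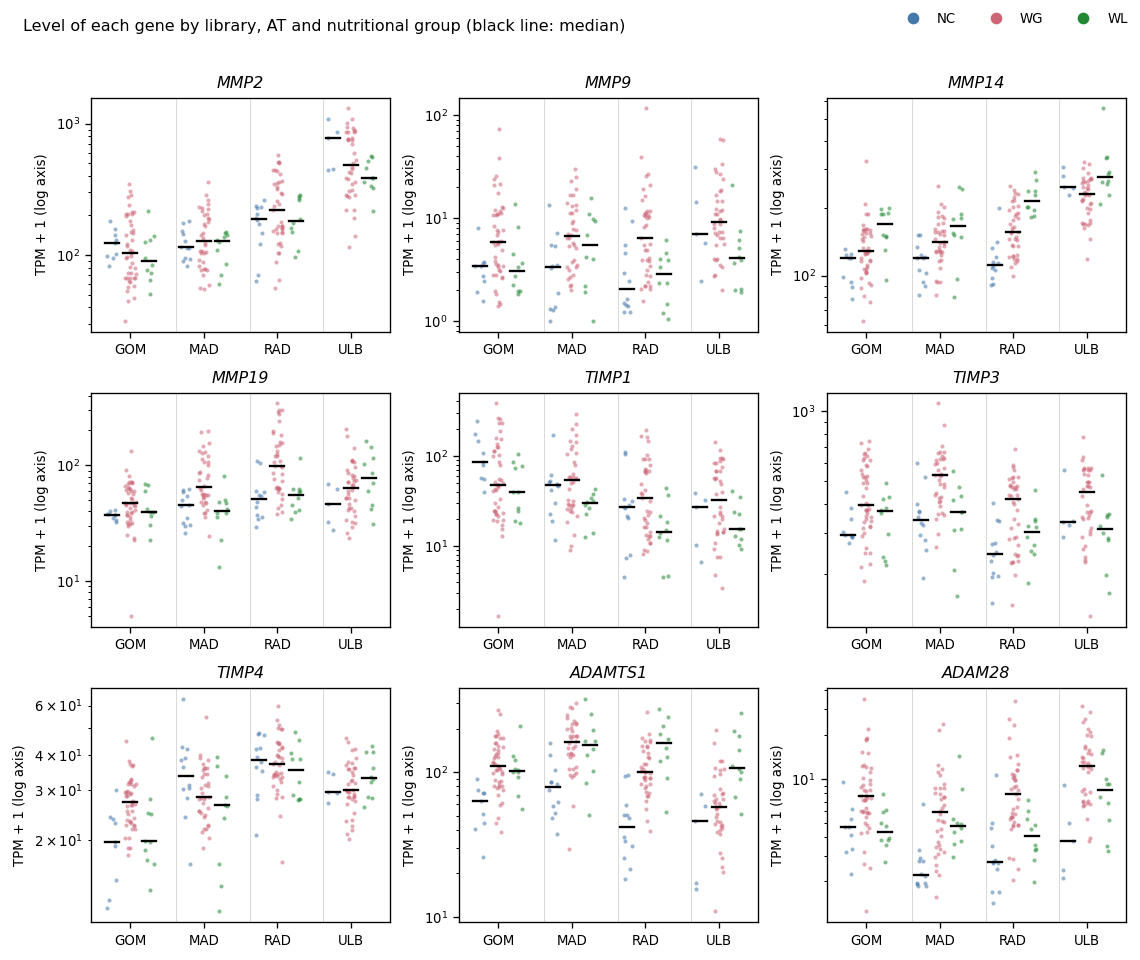
TPM of the 9 genes with expression values in each library (points, log axis of TPM + 1), by AT and nutritional condition, with a black line at the group median. MMP2 and MMP14 sit highest in ULB under every condition, and MMP9 and ADAM28 sit lowest of the 9.

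On Sscrofa11.1, MMP2 is at chr6:30059247-30087031, MMP9 at chr17:48179690-48186782, MMP14 at chr7:76174502-76185931 and MMP19 at chr5:21279514-21285943. TIMP1 is at chrX:42103251-42106289, TIMP2 at chr12:3254794-3300835, TIMP3 at chr5:12185816-12242599 and TIMP4 at chr13:68179803-68191199. ADAMTS1 is at chr13:190277175-190285957 and ADAM28 at chr14:8375169-8438622. TIMP1, TIMP3 and TIMP4 each lie within the span of a synapsin gene on the opposite strand (SYN1, SYN3 and SYN2), and the RNA was counted with strand. TIMP4 also neighbours PPARG, the gene of the master regulator of adipocyte differentiation.

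The promoters, taken as the 250 bases before and 50 bases after each RefSeq start, were searched on both strands for the AP-1 letters TGAGTCA or TGACTCA, since AP-1 is a known regulator of several MMP genes. They occurred in the promoters of MMP9, MMP19 and ADAMTS1, 3 of 10, against 668 of 19556 promoters (3.42%). Every member with expression values, with or without these letters, was called in at least 1 comparison of nutritional conditions. The 3 windows are shown to place the letters, from RefSeq, 5′ to 3′ along the gene, with the AP-1 letters in capitals. The MMP9 window is the 150 bases before the start (chr17:48179540-48179689, plus strand), with the motif beginning 113 bases before it. The MMP19 window is the 150 bases before the start (chr5:21285944-21286093, minus strand), with the motif beginning 11 bases before it. The ADAMTS1 window holds 30 bases around the motif (chr13:190285922-190285951, minus strand), which begins 18 bases after the first base of the transcript.
MMP9: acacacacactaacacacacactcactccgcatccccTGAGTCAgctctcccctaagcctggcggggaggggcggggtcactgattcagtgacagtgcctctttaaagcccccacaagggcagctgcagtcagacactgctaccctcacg
MMP19: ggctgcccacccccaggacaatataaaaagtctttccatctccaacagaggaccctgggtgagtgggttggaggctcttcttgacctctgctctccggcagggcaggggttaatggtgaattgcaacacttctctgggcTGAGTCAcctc
ADAMTS1: tctcctctttagTGACTCAgggagccctat
A match describes these letters only, and binding was not measured.

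Counts were compared with edgeR between 2 groups at a time, over all PCGs above 0.5 TPM in 80% of the libraries of either group. A gene was called differentially expressed when its fold change exceeded 1.5 and its adjusted p was under 0.05. Of 36 tests of NC against WG, 10 were called, all higher in WG, and they belonged to MMP9, MMP19, ADAMTS1 and ADAM28. Among the 10, MMP9 in RAD was tested only because its WG level passed the filter. In GOM 2 of 9 members were called, against 26.7% of all PCGs tested, in MAD 3 against 10.7%, in RAD 4 against 16.7%, and in ULB 1 against 2.38%. Of 36 tests of WG against WL, 12 were called, 11 of them lower in WL and 1, ADAMTS1 in ULB, higher. MMP9 in RAD, among the 11, was tested only because its WG level passed the filter. The counts were 1 of 9 in GOM against 5.26% of PCGs, 3 in MAD against 17.4%, 4 in RAD against 6.37%, and 4 in ULB against 8.12%. Between NC and WL, 10 of 35 tests were called, 6 higher and 4 lower in WL. GOM had 2 of 9 against 36.1% of PCGs, MAD 4 of 9 against 33.1%, RAD 2 of 8 against 26.7%, and ULB 2 of 9 against 14.8%. The shares of members called from NC to WG in GOM and from NC to WL lie near the background. The comparisons share libraries and are given side by side only.

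The PCG share bore on these counts. Among libraries with a share of 88% or more, of which the NC groups of GOM, MAD, RAD and ULB keep 2, 10, 6 and 3, 3 of the 10 calls of NC against WG remained, ADAM28 in MAD and RAD and ADAMTS1 in MAD. With the share as a term in the model, 8 tests of NC against WG were called, 6 higher and 2 lower. The 2 lower were MMP2 and TIMP1 in GOM, which were not called without the term. Of the 12 calls of WG against WL 3 remained with the term, MMP19 in MAD and RAD and ADAMTS1 in ULB. Among libraries with a share of 88% or more, 8 tests of WG against WL were called, 7 of them among the 12 and TIMP3 in ULB in addition. Of the 10 calls of NC against WL, 5 remained among these libraries, and 7 remained with the share as a term. The cause of the lower share was not tested.

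Whether a difference between nutritional conditions varied among the ATs was tested with an interaction over all libraries and called at an adjusted p below 0.05. For NC against WG 8.8% of PCGs were called, and of the 9 members TIMP4 alone (adjusted p = 0.0195, edgeR). For WG against WL 6.41% were called, and of the members MMP19 alone (adjusted p = 0.00447, edgeR). For NC against WL 8.32% of PCGs and 0 of 9 members were called by edgeR, with 3 of 9 at an unadjusted p under 0.05. Among libraries with a share of 88% or more none of the 27 member tests was called by edgeR, with 2 of 27 at an unadjusted p under 0.05, and TIMP4 and MMP19 had adjusted p = 0.267 and 0.227. On simulated counts the NC to WG interaction recovered 12.5% of genes changed by a fold of 2 in WG ULB alone. Changes in the other ATs were not simulated. Members that were not called therefore cannot be taken to behave alike in all ATs.

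**Figure D2:**
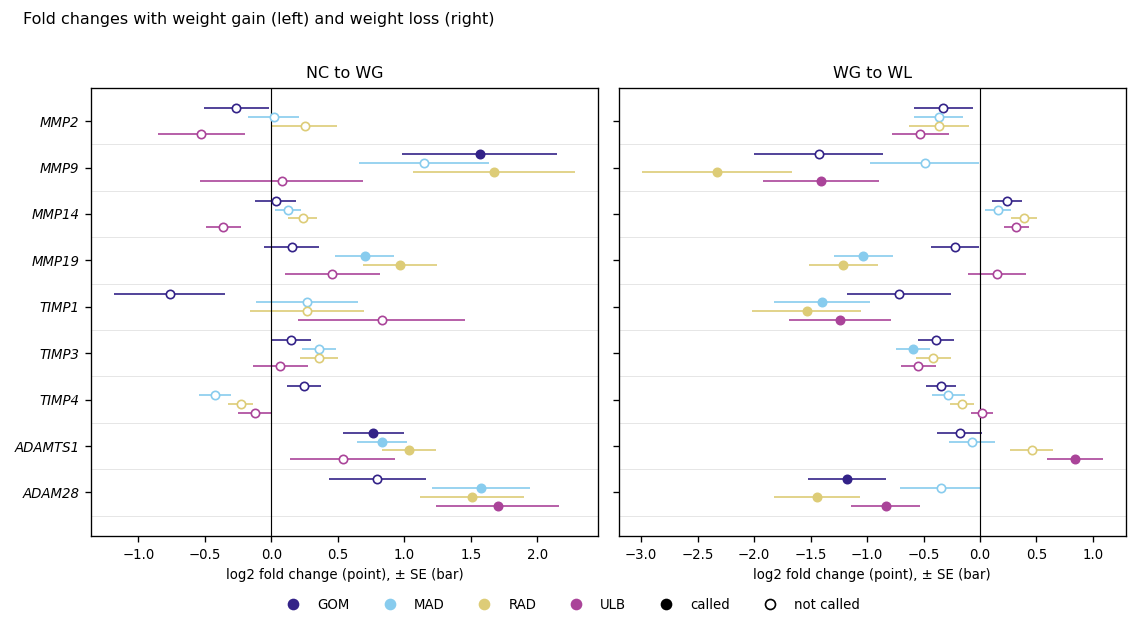
Log2 fold changes (points) ± SE (bars) of the 9 genes from NC to WG (left) and from WG to WL (right), coloured by AT, with filled points for called genes. MMP9, MMP19, ADAMTS1 and ADAM28 hold the 10 filled points of the left panel, all to the right of 0, and 11 of the 12 filled points in the right panel lie to the left of 0, with ADAMTS1 in ULB to its right.

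Between ATs, NC had 15 of 53 tests called, WG 20 of 54 and WL 15 of 54. In NC, 3 of 9 members were called between GOM and MAD against 17.7% of PCGs, 3 between GOM and RAD against 19.5%, 5 between GOM and ULB against 25.4%, 2 between MAD and ULB against 7.73%, and 2 between RAD and ULB against 4.32%. Between NC MAD and RAD 0 of 8 were called by edgeR against 2.41%, with 3 of 8 at an unadjusted p under 0.05 and 0 by DESeq2 and by limma. In WG the counts were 1 of 9 between GOM and MAD against 6.27%, 2 between GOM and RAD against 11.2%, 6 between GOM and ULB against 17.9%, 2 between MAD and RAD against 5.4%, 6 between MAD and ULB against 14.4%, and 3 between RAD and ULB against 9.27%. In WL, 3 members were called between GOM and RAD against 12.2%, 6 between GOM and ULB against 16%, 1 between MAD and RAD against 7.31%, 3 between MAD and ULB against 14.4%, and 2 between RAD and ULB against 4.34%. Between WL GOM and MAD 0 of 9 were called by edgeR against 5.97%, with 2 of 9 at an unadjusted p under 0.05 and 0 by DESeq2 and by limma. The comparisons that held most called members were those of GOM or MAD with ULB in WG and of GOM with ULB in WL.

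MMP9 encodes gelatinase B, which neutrophils store in granules and macrophages and osteoclasts also make. It was low and uneven, with 1 NC MAD and 1 WL MAD library at 0 TPM and the highest library at 115 TPM in WG RAD. In GOM the lowest, median and highest library held 0.562, 2.41 and 6.93 TPM in NC, 0.408, 4.82 and 71.8 TPM in WG, and 0.826, 2.04 and 12.7 TPM in WL. In RAD they held 0.207, 1.04 and 11.5 TPM in NC, 0.569, 5.36 and 115 TPM in WG, and 0.0502, 1.85 and 5.13 TPM in WL. The groups overlapped throughout, though 17 of 45 WG GOM and 8 of 39 WG RAD libraries lay above every NC library of their AT.

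From NC to WG, MMP9 was higher in GOM (log2 fold change 1.57 ± 0.59 SE, adjusted p = 0.0298) and RAD (1.67 ± 0.61, adjusted p = 0.029). In MAD the difference was 1.15 ± 0.49 (adjusted p = 0.0922) and in ULB 0.08 ± 0.62 (adjusted p = 0.977), and neither was called. In MAD and RAD it passed the filter on low values only through WG, so it could enter those tests only by its level there, and the same holds for RAD in the next comparison. From WG to WL it was lower in RAD (-2.33 ± 0.66, adjusted p = 0.015) and ULB (-1.41 ± 0.51, adjusted p = 0.0486), and not called in GOM (-1.43 ± 0.57, adjusted p = 0.107) or MAD (-0.49 ± 0.48, adjusted p = 0.446). The summed TPM of the 3 matched neutrophil markers (S100A8, S100A12 and CSF3R) was lower alongside, with a median of 89.7 in WG and 34.5 in WL RAD and of 165 in WG and 40.6 in WL ULB, and 1 and 2 of the 3 were called lower. From NC to WG, where MMP9 was called higher in GOM and RAD, the median of that sum was 240 and 267 in GOM and 125.5 and 89.7 in RAD. From WG to WL, where MMP9 was not called, it was 267 and 103 in GOM and 93.2 and 40.55 in MAD. Over all libraries MMP9 and the neutrophil list had Pearson's r = 0.18, and 0.14 after group means were removed. The part of neutrophils in the MMP9 difference was not tested.

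Of the MMP9 differences between ATs, ULB was above GOM in NC (log2 fold change 2.08 ± 0.54, adjusted p = 0.00869) and above MAD in WG (0.73 ± 0.29, adjusted p = 0.036). The 5 NC ULB libraries held 1.43, 4.68, 6.04, 13.3 and 29.9 TPM, of which the lowest 3 lay within the NC GOM range. The NC call was lost without ULB replicate 12 (1.45, adjusted p = 0.0537) and with the replicate number as a block (1.46, adjusted p = 0.115). With that block the WG difference between MAD and ULB was 0.50 (adjusted p = 0.0182), under the fold limit, while ULB was called above RAD in WG (0.80, adjusted p = 8.31e-05) and RAD below MAD in WL (-1.42, adjusted p = 0.0113). In that WL test MMP9 passed the filter only through MAD, since 7 of 10 RAD libraries were above 0.5 TPM against 9 of 10 in MAD.

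MMP2 encodes gelatinase A, which stromal cells secrete and which cuts denatured collagen and basement membrane collagen. ULB held the most in every condition. The 5 NC ULB libraries had 440.9, 449, 783, 865 and 1077 TPM, whereas NC GOM ran from 81.6 to 181 TPM (median 123), NC MAD from 81.7 to 179.7 (median 113) and NC RAD from 62.0 to 262 (median 187). No NC ULB library overlapped those of a VAT. In WG the lowest, median and highest library held 114, 486 and 1309 TPM in ULB, 55.5, 221 and 576.5 TPM in RAD, 53.9, 128 and 358 TPM in MAD, and 30.5, 101.7 and 347 TPM in GOM, and the ranges overlapped.

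In edgeR, MMP2 was higher in NC ULB than in GOM (2.50 ± 0.22, adjusted p = 5.67e-07), MAD (2.54 ± 0.22, adjusted p = 2.76e-07) and RAD (1.94 ± 0.29, adjusted p = 0.000258). The same order was called in WG, with 2.24 ± 0.17 from GOM, 1.98 ± 0.17 from MAD and 1.17 ± 0.18 from RAD (adjusted p from 8.9e-21 to 7.21e-08). In WL, where ULB ran from 216 to 564 TPM (median 385), it was 1.997 ± 0.22 above GOM, 1.80 ± 0.19 above MAD and 1.00 ± 0.23 above RAD (adjusted p from 3.1e-07 to 0.00913). RAD in turn was above GOM (1.08 ± 0.17, adjusted p = 9.7e-08) and MAD (0.82 ± 0.17, adjusted p = 0.000128) in WG, and above both in WL (1.00 ± 0.26 and 0.80 ± 0.23, adjusted p = 0.00772 and 0.0339). GOM and MAD were not called different in any condition.

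MMP2 was not called between NC and WG (log2 fold changes from -0.53 to 0.25) or between WG and WL (from -0.53 to -0.33). With the PCG share as a term, however, MMP2 was called lower in WG than NC in GOM. The values that follow are without that term. From NC to WL it was lower in ULB (-1.07 ± 0.23, adjusted p = 0.00533), and 6 of 10 WL ULB libraries lay below every NC one. With the 3 NC ULB libraries of higher PCG share it was not called (-0.96, adjusted p = 0.0529). The summed fibroblast and progenitor markers (PDGFRA, DCN, COL1A1, COL3A1, DPP4 and PI16) stood beside it, with a median of 9760.2 TPM in NC ULB, 9122 in WG ULB and 4526 in WL ULB against 2133 to 4501 in the VATs. The single markers were mixed. In NC, 2 or 3 of the 6 were called higher in ULB than in a VAT and 1 lower, in WG 2 were higher and 1 to 3 lower, and in WL 2 were higher and 2 lower. Their median log2 fold change to ULB ran from 0.17 to 0.68 in NC, from -0.38 to 0.07 in WG and from -0.39 to 0.28 in WL. From NC to WL ULB, 4 of 6 were called lower. Their part in the MMP2 differences was not tested.

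MMP14 encodes the membrane-bound MT1-MMP, which cuts fibrillar collagen and activates pro-MMP2 at the cell surface together with TIMP2. Its 5 NC ULB libraries held 229, 245, 249, 277 and 305 TPM, all above the NC VAT libraries, which ran from 77.4 to 199 TPM. ULB was above GOM, MAD and RAD in NC by 1.22 ± 0.14, 1.18 ± 0.14 and 1.07 ± 0.14 (adjusted p = 8.52e-06, 1.37e-05 and 5.46e-05). ULB was also above GOM and MAD in WG (0.85 ± 0.08 and 0.69 ± 0.07, adjusted p = 3.89e-15 and 2.95e-14) and in WL (0.90 ± 0.15 and 0.84 ± 0.19, adjusted p = 0.000106 and 0.00278).

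Among conditions, MMP14 was called once, higher in WL than in NC RAD (0.63 ± 0.11, adjusted p = 0.000185). NC RAD ran from 89.7 to 199 TPM (median 111), WG RAD from 98.9 to 251 (median 155) and WL RAD from 182 to 290 (median 215), and 7 of 10 WL libraries lay above every NC one. From WG to WL the differences in RAD (0.39 ± 0.11, adjusted p = 0.0184) and ULB (0.32 ± 0.11, adjusted p = 0.0375) passed the test on p and stayed under the fold limit. Neither MMP14 nor MMP2 was called lower in WL than in WG.

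MMP19 encodes a widely expressed metalloproteinase that cuts basement membrane proteins. In RAD the lowest, median and highest library held 28.1, 50.4 and 107 TPM in NC, 37.0, 98.6 and 341 TPM in WG, and 33.6, 54.6 and 114 TPM in WL. In MAD they held 25.2, 44.02 and 61.5 TPM in NC, 23.3, 64.0 and 195 TPM in WG, and 12.3, 39.5 and 80.5 TPM in WL. The groups overlapped, with 18 of 39 WG RAD and 19 of 36 WG MAD libraries above every NC library of their AT.

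MMP19 was higher in WG than NC in MAD (0.70 ± 0.22, adjusted p = 0.0231) and RAD (0.97 ± 0.28, adjusted p = 0.00577). It was lower in WL than WG in the same ATs (-1.03 ± 0.26, adjusted p = 0.00282 and -1.21 ± 0.31, adjusted p = 0.00592). GOM and ULB showed no called difference in either step, with log2 fold changes of 0.15 ± 0.21 and 0.46 ± 0.36 and then of -0.22 ± 0.21 and 0.15 ± 0.26. Between ATs, WG RAD held the most, 1.43 ± 0.16 above GOM (adjusted p = 4.16e-12), 0.66 ± 0.18 above MAD (adjusted p = 0.00672) and above ULB, where the log2 fold change from RAD was -0.81 ± 0.19 (adjusted p = 0.000295). WG ULB was also called above WG GOM, with medians of 63.0 and 46.1 TPM. That call was lost with limma, with the PCG share as a term and with the replicate number as a block. In WL, ULB was above GOM (0.95 ± 0.26, adjusted p = 0.00884) and MAD (1.01 ± 0.30, adjusted p = 0.0183), with a median of 76.8 TPM. Both of these WL calls were lost among libraries of 88% share or more (0.95 and 0.85, adjusted p = 0.127 and 0.254), as were 10 of the 15 calls between ATs in WL.

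TIMP1 encodes the secreted inhibitor that binds pro-MMP9. It varied widely between libraries of 1 group, from 0.678 to 379.5 TPM in WG GOM. In NC the lowest, median and highest library held 38.8, 84.8 and 243 TPM in GOM, 10.6, 46.1 and 167 TPM in MAD and 3.55, 25.99 and 110 TPM in RAD, and the ULB libraries held 5.62, 9.23, 25.9, 31.1 and 37.6 TPM. The NC ULB libraries lay below every NC GOM library. From GOM the log2 fold change was -1.14 ± 0.39 to MAD, -1.61 ± 0.47 to RAD and -2.38 ± 0.48 to ULB (adjusted p = 0.0353, 0.0138 and 0.0016). The MAD call was lost with the PCG share as a term (adjusted p = 0.0902), and the MAD and RAD calls among libraries of 88% share or more (adjusted p = 0.421 and 0.256), while the ULB call remained in both. The log2 fold changes of MMP2 from GOM to ULB had the other sign.

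From WG to WL, TIMP1 was lower in MAD (-1.40 ± 0.42, adjusted p = 0.0108), RAD (-1.54 ± 0.48, adjusted p = 0.0274) and ULB (-1.24 ± 0.45, adjusted p = 0.0496). The WG medians were 52.5, 32.8 and 31.7 TPM and the WL medians 28.9, 13.5 and 14.3 TPM, with overlapping ranges. From NC to WL it was lower in GOM (-1.43 ± 0.36, adjusted p = 0.00196) and MAD (-1.10 ± 0.36, adjusted p = 0.015). No NC to WG difference was called, the values for GOM, MAD, RAD and ULB being -0.77 ± 0.42, 0.27 ± 0.38, 0.27 ± 0.43 and 0.83 ± 0.63. With the PCG share as a term, however, TIMP1 was called lower in WG than NC in GOM. In WG, ULB was below GOM (-0.78 ± 0.29, adjusted p = 0.0201) and MAD (-0.67 ± 0.28, adjusted p = 0.0482). With the replicate number as a block the difference from MAD was -0.54 (adjusted p = 0.00164), under the fold limit.

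TIMP3, which binds to the matrix and also inhibits ADAM proteases, was the most abundant of TIMP1, TIMP3 and TIMP4, with group medians from 243 TPM in NC RAD to 529 TPM in WG MAD. The level of TIMP2 is not known here, since its symbol matched no row. TIMP3 made up 75.4% to 87.1% of the summed level of TIMP1, TIMP3 and TIMP4 as group medians. No difference between ATs was called, with log2 fold changes from -0.41 to 0.44. In MAD the lowest, median and highest library held 191, 339 and 598 TPM in NC, 261, 529 and 1077 TPM in WG and 159, 366 and 549 TPM in WL. It was lower in WL than WG there (-0.59 ± 0.15, adjusted p = 0.0021), just past the fold limit. That MAD call was kept with DESeq2, RLE factors and limma. It was lost without the filter on low values, with the PCG share as a term, and among libraries of higher PCG share. In ULB the same comparison gave -0.55 ± 0.16 (adjusted p = 0.0105), under the fold limit. Among libraries of higher PCG share the ULB difference was called and the MAD one was not.

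TIMP4, the inhibitor known for its expression in adipose tissue and heart, ranged from 10.2 to 62.5 TPM. NC GOM libraries ran from 10.5 to 29.04 TPM (median 18.6), NC MAD from 15.4 to 62.5 (median 32.8) and NC RAD from 19.9 to 46.9 (median 37.6), and the ULB libraries held 26.1, 28.4, 28.6, 33.3 and 33.98 TPM. GOM held the least, with log2 fold changes from it of 0.82 ± 0.18 to MAD, 1.00 ± 0.16 to RAD and 0.64 ± 0.19 to ULB (adjusted p = 0.00235, 5.41e-05 and 0.0195). The ULB call was lost with the replicate number as a block (0.71, adjusted p = 0.0917). With the PCG share as a term the MAD and ULB calls were lost (adjusted p = 0.0724 and 0.0627), as they were among libraries of 88% share or more, where NC GOM keeps 2 of 9 (adjusted p = 0.15 and 0.106). The RAD call remained in both. From NC to WG the value was 0.25 ± 0.13 in GOM (adjusted p = 0.131) and -0.42 ± 0.12 in MAD (adjusted p = 0.0109, under the fold limit). The values of RAD and ULB lay between these. The interaction tests all ATs together and does not name those that differ. From NC to WL it was lower in MAD (-0.69 ± 0.20, adjusted p = 0.00645). That call was lost with limma, with the PCG share as a term and among libraries of 88% share or more.

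ADAMTS1 was the gene called in most diet comparisons, 8 of 12. NC GOM libraries ran from 25.1 to 87.99 TPM (median 62.1), WG GOM from 37.8 to 269 (median 109) and WL GOM from 55.04 to 207 (median 101). NC RAD ran from 17.3 to 93.9 TPM (median 40.9), WG RAD from 38.4 to 258 (median 99.2) and WL RAD from 52.2 to 272 (median 158). WG and WL libraries lay mostly above the NC ones, 30 of 45 WG GOM and 8 of 10 WL RAD libraries above every NC library of the AT.

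From NC to WG, ADAMTS1 was higher in GOM (0.77 ± 0.23, adjusted p = 0.00728), MAD (0.83 ± 0.19, adjusted p = 0.00184) and RAD (1.04 ± 0.21, adjusted p = 0.000108), and in ULB the value was 0.54 ± 0.39 (adjusted p = 0.563). From NC to WL it was higher in all 4 ATs, with log2 fold changes of 0.59 ± 0.21, 0.77 ± 0.24, 1.49 ± 0.25 and 1.36 ± 0.38 for GOM, MAD, RAD and ULB (adjusted p = 0.0216, 0.0112, 0.000109 and 0.0194). In ULB it was also higher in WL than WG (0.84 ± 0.25, adjusted p = 0.0141). The NC to WL call in ULB was lost without NC ULB replicate 9 (1.15, adjusted p = 0.0571). Among libraries of 88% share or more the GOM and ULB calls were lost (0.72 and 1.42, adjusted p = 0.0817 and 0.0668), and with the share as a term the GOM value was 0.55 (adjusted p = 0.0391), under the fold limit. In WG, ULB held less than GOM (-0.78 ± 0.15), MAD (-1.27 ± 0.16) and RAD (-0.73 ± 0.15), with adjusted p from 2.46e-10 to 9.25e-05.

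ADAM28 was low in NC, with medians from 1.23 TPM in MAD to 3.68 TPM in GOM. The NC ULB libraries held 1.11, 1.38, 2.78, 4.04 and 8.04 TPM, whereas WG ULB ran from 2.79 to 30.5 TPM (median 11.3) and WL ULB from 2.23 to 14.7 (median 7.36). In all, 24 of 38 WG ULB libraries lay above every NC ULB library. NC MAD ran from 0.851 to 5.72 TPM, WG MAD from 0.570 to 22.7 (median 4.91) and WL MAD from 1.95 to 13.2 (median 3.78). ADAM28 was higher in WG than NC in MAD (1.58 ± 0.37, adjusted p = 0.0021), RAD (1.51 ± 0.39, adjusted p = 0.00237) and ULB (1.70 ± 0.46, adjusted p = 0.0285), and in GOM the value was 0.80 ± 0.37 (adjusted p = 0.0778).

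The ADAM28 call in ULB was lost without NC replicate 2 (1.78, adjusted p = 0.0582), 5 (1.66, adjusted p = 0.121), 9 (1.54, adjusted p = 0.143) or 12 (1.47, adjusted p = 0.111). From WG to WL it was lower in GOM (-1.17 ± 0.35, adjusted p = 0.0221), RAD (-1.44 ± 0.38, adjusted p = 0.00853) and ULB (-0.84 ± 0.30, adjusted p = 0.0483). In MAD it was not called from WG to WL (-0.35 ± 0.36), and WL stayed above NC there (1.24 ± 0.35, adjusted p = 0.00611). Between ATs, ULB was above GOM (0.68 ± 0.20, adjusted p = 0.00288) and MAD (1.13 ± 0.22, adjusted p = 1.33e-05) in WG. ULB was not called above RAD in WG by edgeR over all libraries without a block. With the replicate number as a block ULB was called above RAD (0.71, adjusted p = 1.85e-05). The same call was made with limma and among libraries of higher PCG share. Macrophage markers moved with it in part: 7 of 7 tested were called higher in WG than NC in MAD and 3 of 7 in RAD, while in ULB the median log2 fold change of the 7 was 0.23 with none called. From WG to WL their median was -0.22 in RAD and 0.09 in ULB. Their part in the ADAM28 differences was not tested.

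The sum of TIMP1, TIMP3 and TIMP4 was set against the sum of MMP2, MMP9, MMP14 and MMP19 in each library, both in TPM, as a description with no test. In NC the ratio of inhibitors to proteases had medians of 1.67, 1.52, 0.918 and 0.335 for GOM, MAD, RAD and ULB. In WG the medians were 1.71, 1.63, 0.815 and 0.578, and in WL 1.22, 1.19, 0.726 and 0.433. Inhibitor mRNA exceeded protease mRNA in GOM and MAD by the median, and the reverse held in RAD and ULB, where MMP2 alone made up 51.9% to 70.0% of the protease sum in ULB. TIMP2 is not in these sums.

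**Figure D3:**
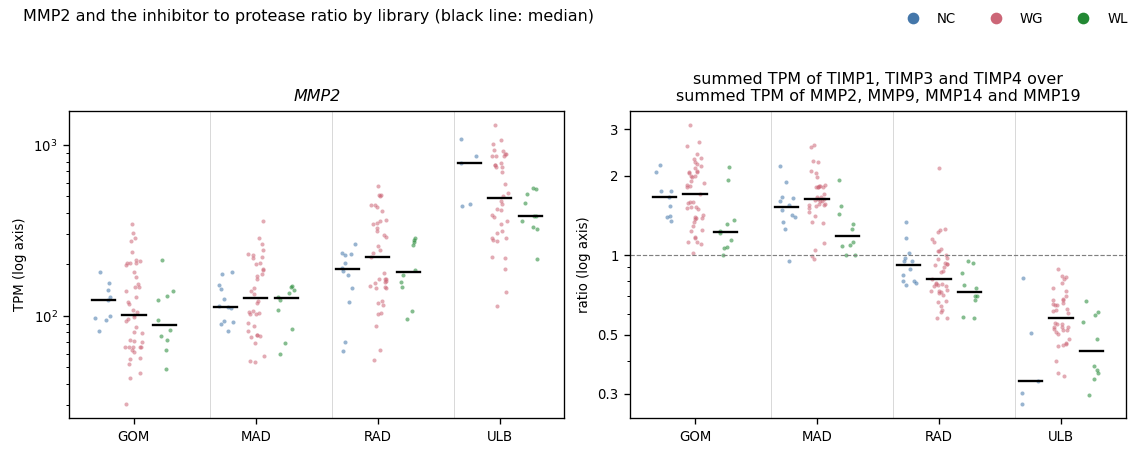
MMP2 in TPM (left) and the ratio of summed TIMP1, TIMP3 and TIMP4 to summed MMP2, MMP9, MMP14 and MMP19 (right), both on log axes, in each library by AT and nutritional condition, with group medians as lines. ULB has the highest medians for MMP2 and the lowest for the ratio, with median ratios of 0.335, 0.578 and 0.433 under NC, WG and WL.

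Hi-C on 240 samples gave an A-B index for each 20-kb bin of the 18 autosomes, above 0 in the open A compartment and below 0 in the closed B compartment. Each gene took the bin of its start, and limma was run over 113298 bins and called at an adjusted p below 0.05. TIMP1 is on the X chromosome and has no index. MMP9, MMP14, MMP19, TIMP2 and TIMP4 were above 0 in every sample, the lowest value being 1.34 for TIMP4. ADAM28 was the only member with group means below 0, from -1.41 in NC MAD to 0.423 in WG ULB.

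In WG, ADAM28 had an index above 0 in 34 of 39 ULB samples, against 1 of 46 in GOM, 0 of 37 in MAD and 1 of 40 in RAD. ULB was higher by 1.37 ± 0.11, 1.48 ± 0.11 and 1.31 ± 0.12 (adjusted p = 5.84e-19, 4.27e-19 and 3.87e-15). Its RNA was also higher in WG ULB than in GOM and MAD, as given above. TIMP3 had the opposite direction, with means of 2.63, 2.41, 2.24 and 1.83 in WG GOM, MAD, RAD and ULB, and its RNA was not called different between ATs. Across the 6 pairs of ATs in WG, members were called in 4 of 9 between GOM and MAD against 45.8% of bins, 4 between GOM and RAD against 56.8%, 6 between GOM and ULB against 66.4%, 2 between MAD and RAD against 18.4%, 6 between MAD and ULB against 56.4%, and 4 between RAD and ULB against 58.3%. These shares lie near the background.

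Between NC and WG, 10 of 36 index tests were called, all higher in WG. They were 1 of 9 in GOM against 11.6% of bins, 3 in MAD against 20.5%, 5 in RAD against 20.8% and 1 in ULB against 10.7%. TIMP4 was called in all 4 ATs, with differences of 0.90 ± 0.20, 0.69 ± 0.23, 0.67 ± 0.21 and 0.90 ± 0.29 in GOM, MAD, RAD and ULB, and its RNA was not called in any of them. The ULB call rests on 5 NC samples and was lost without NC replicate 5, 7, 9 or 12 (0.89, 0.91, 0.88 and 0.69) and after quantile normalization. MMP19 was called in MAD (3.66 in NC and 4.48 in WG) and RAD (3.68 and 4.59), the ATs in which its RNA was higher too. The median of all bins also moved from NC to WG, by 0.137, 0.0545, 0.142 and 0.247 in the 4 ATs. After quantile normalization 5 tests were called, TIMP4 in GOM, MMP19 in MAD and RAD and ADAMTS1 in RAD higher and MMP9 in MAD lower.

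Between WG and WL, 5 of 36 index tests were called, all higher in WL, 1 of 9 in GOM against 18% of bins, 3 in RAD against 17.5% and 1 in ULB against 33.4%. In MAD limma called 0 of 9 against 4.91%, with 3 of 9 at an unadjusted p under 0.05 and 1 after quantile normalization. MMP14 in RAD had means of 4.06 in WG and 4.95 in WL (adjusted p = 0.000436). MMP2 in RAD had 1.29 and 2.0 (adjusted p = 0.00707), while its RNA was not called. Both stayed called after quantile normalization, whereas MMP19 in GOM, ADAMTS1 in RAD and TIMP3 in ULB did not (adjusted p = 0.215, 0.108 and 0.416). That scaling added MMP14 in MAD, higher in WL (0.58, adjusted p = 0.033), and ADAM28 in ULB, lower in WL (-0.56, adjusted p = 0.0244), so the common direction depends on the scaling.

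**Figure D4:**
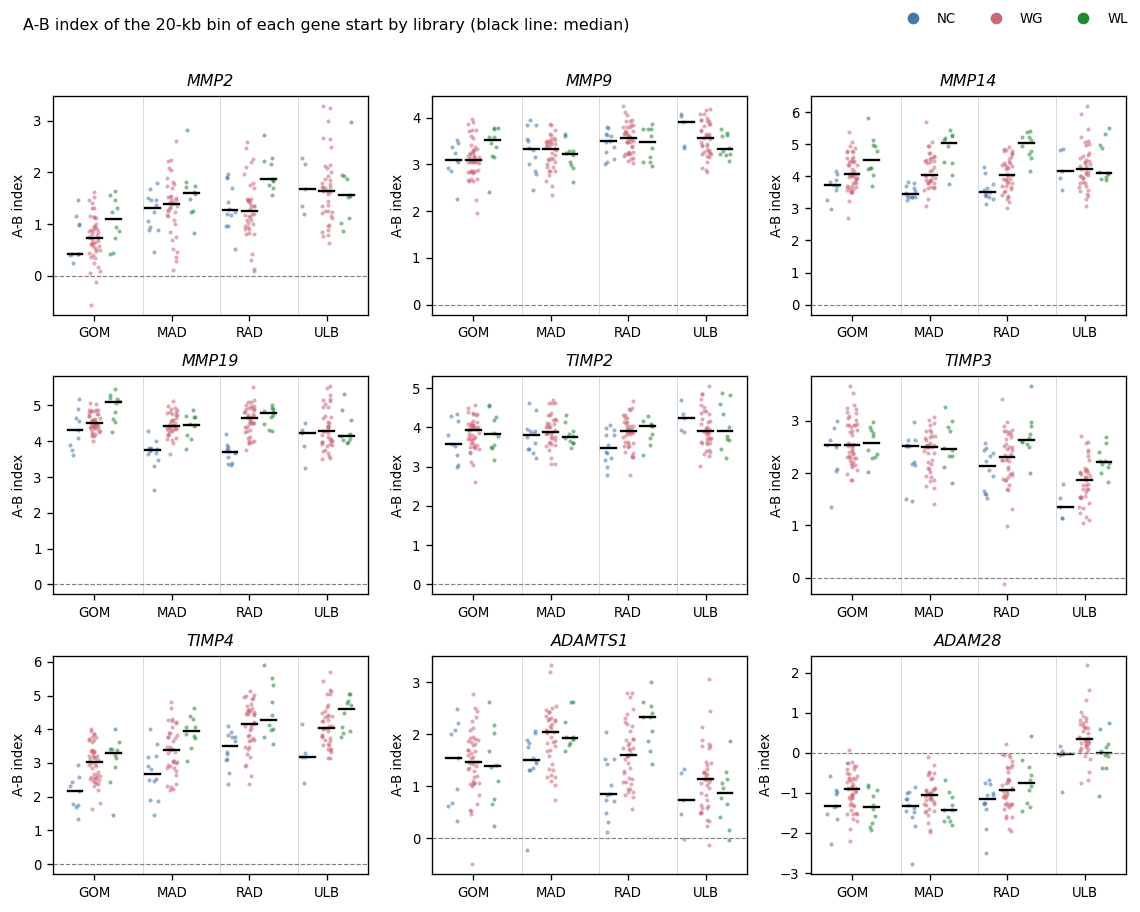
A-B index at the start of 9 genes (points, 1 per Hi-C sample) by AT and nutritional condition, with group medians as black lines and 0 as the boundary of the compartments. ADAM28 has medians below 0 in the VATs and lies around 0 in ULB, where 34 of 39 WG samples are above it.

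H3K27ac ChIP-seq, a mark of active enhancers, was deposited as 18 ranked tables of stitched regions from pooled libraries, 4 of NC, 10 of WG and 4 of WL. The study set the caller to exclude promoter regions, yet many regions cover the start of a gene. That was so in 18 tables for MMP19 and TIMP2, 17 for MMP14 and 15 for MMP2, TIMP3 and ADAMTS1. It was so in 14 for TIMP4, 9 for MMP9 and 3 for ADAM28. Ranks and super-enhancer marks can therefore hold signal at the promoter. Pooling leaves no replicates, and for NC MAD the labels hold only 1 H3K27ac library, so these are descriptions. A region within 10 kb of the gene was found in all 18 tables for MMP2, MMP19 and TIMP2, in 17 for MMP9, MMP14, TIMP4 and ADAMTS1, in 16 for TIMP3 and in 15 for ADAM28. It was a super-enhancer in 18 tables for TIMP2, 15 for MMP14, 14 for TIMP3, 13 for MMP19, 10 for TIMP4, 2 for MMP2, 1 for ADAM28 and 0 for MMP9 and ADAMTS1. Of 18725 autosomal genes, 65.2% to 85.6% had a region and 5.72% to 27.8% a super-enhancer, depending on the table. TIMP3 and TIMP2 ranked highest, their best region lying in the top 0.366% and 0.454% of a table by the median, and ADAM28 lowest at 61.1%.

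**Figure D5:**
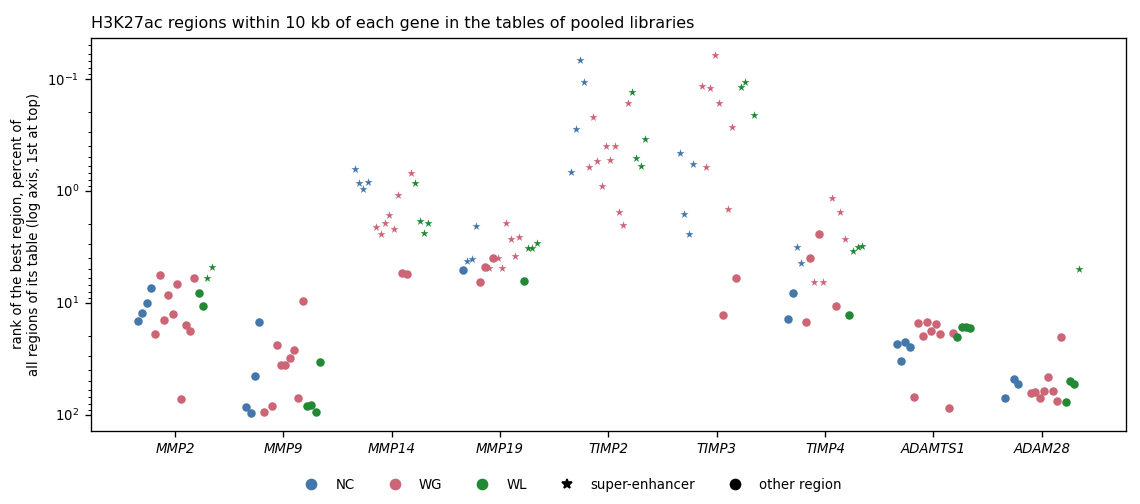
Rank of the strongest H3K27ac region within 10 kb of each gene, in percent of all regions of a table (log axis, strongest at the top), for the 18 tables, with stars for super-enhancers. TIMP2 and TIMP3 lie near the top of the ranking, and MMP9 and ADAM28 lie lowest by their medians of 45.2% and 61.1%.

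The genes whose log2(TPM + 1) was most alike over all RNA-seq libraries, out of 15068, are given with Pearson's r and no test, since libraries share pigs, AT and PCG share. MMP2 was most like COL6A3 (r = 0.93), PCOLCE (0.90) and COL1A1 (0.86), a collagen VI chain, an enhancer of procollagen processing and a collagen I chain. MMP9 was most like DCSTAMP (0.75), CSF3R (0.71) and AMPD3 (0.71), of which CSF3R was also on the neutrophil list. For ADAM28, CCR1 (0.74) and NLRP3 (0.71), both known from myeloid cells, were among the most alike. MMP14 was most like C1QTNF1 (0.74), MMP19 like NOCT (0.72), TIMP1 like CTTNBP2NL (0.84), TIMP3 like SMARCA4 (0.78), TIMP4 like TLN2 (0.70) and ADAMTS1 like PHLDA2 (0.74).

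Of 84 other genes of matrix proteolysis, 78 were in the table. From NC to WG, 16 of 67 tested were called higher and 2 lower in GOM, 15 and 4 of 66 in MAD, 18 and 5 of 65 in RAD and 1 and 3 of 65 in ULB, against 26.7%, 10.7%, 16.7% and 2.38% of all PCGs called in either direction. From WG to WL the counts were 4 higher and 6 lower of 66 in GOM, 2 and 12 of 67 in MAD, 2 and 6 of 65 in RAD and 4 and 7 of 66 in ULB, against 5.26%, 17.4%, 6.37% and 8.12%. MMP27 had NC medians of 2.08 and 2.004 TPM in GOM and MAD and of 20.0 and 58.2 TPM in RAD and ULB, with the highest NC median in ULB, whereas in WG its median was 32.2 TPM in RAD and 24.2 TPM in ULB. ADAMTS16 was lower in WL than WG in GOM (-1.52 ± 0.39, adjusted p = 0.00744) and MAD (-1.34 ± 0.32, adjusted p = 0.00151).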

How the data were processed

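Per the labels and the study's methods, ribosomal RNA-depleted stranded total RNA was sequenced, and the authors quantified it with kallisto 0.43.0 on PCGs, long non-coding RNAs and transcripts of uncertain coding potential of Sscrofa11.1. They deposited estimated counts and TPM per gene. The deposited A-B index is a score per 20-kb bin from Hi-C, and the deposited H3K27ac tables rank the signal of stitched regions from pooled libraries (BWA 0.7.15, SAMtools 1.3.1, SICER and ROSE). In the deposited tables, 9 RNA-seq and 9 Hi-C columns matched no sample and were not used.

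Estimated counts were rounded and compared with edgeR 4.0.16 (TMM, quasi-likelihood F test, Benjamini-Hochberg adjustment) in R 4.3.3, each pair of groups alone, over PCGs above 0.5 TPM in 80% of the libraries of either group. SE is the absolute log2 fold change divided by the square root of F. The interaction used all 12 groups. The A-B index was compared with limma 3.58.1. DESeq2 1.42.0, RLE factors, limma on log2(TPM + 1), no filter, no fold limit, the PCG share as a term, libraries of 88% share or more, and leaving out NC ULB libraries were tried. Tested on simulated counts, edgeR recovered 97% of genes changed by a fold of 2 between NC and WG RAD (13915 genes) and 52.2% between NC and WG ULB (13886 genes), where a fold of 1.5 was recovered in 4.48%. The NC to WG interaction recovered 12.5% of genes changed by a fold of 2 in WG ULB alone (14126 genes), and 10.7% of its calls were false. Recovery was counted at an adjusted p below 0.05 without the fold limit. Total counts on PCGs ranged from 3337098 to 22939420, and no library pair exceeded r = 0.994.

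Replicate numbers were checked for pairing between ATs. The correlation of deviations from group means was above 0.1 in every pair in 4 of 18 comparisons (NC GOM with ULB, WG MAD with ULB, WG RAD with ULB, WL MAD with RAD). There the blocked value is given if it changes a call. In the WG comparisons its median was 0.556 to 0.637, against -0.0956 to -0.00428 for libraries of other numbers over all 18. Outside the 4, the block lost MMP19 between GOM and ULB in WG and between GOM and RAD in NC. It added MMP9 between GOM and ULB and TIMP1 between GOM and RAD in WG. In NC it added ADAMTS1 between MAD and RAD and TIMP1 between MAD and ULB. Neither labels nor methods state that a number is 1 pig, and p-values measure the spread between these libraries.

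The members and gene lists were chosen with earlier results of these data known. All members are named, with the 3 genes most correlated with each. Of the other proteolysis genes, those with the largest changes among the ones called most often are named. Of the genes these rules select, 2 are not reported here. Promoters, positions and motifs came from RefSeq tables on Sscrofa11.1.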

Additional observations from a re-analysis of the deposited data

Results flagged for a closer look

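Of 54 sets of 4 to 10 libraries (each gene in each group of that size), 3 held a library far from the others by Dixon's ratio, where chance gives about 2.7 (1 in 20). MMP14 was at 558.71 TPM in WL ULB replicate 5, with the others from 208.84 to 339.12 TPM. MMP19 was at 114.34 TPM in WL RAD replicate 10, with the others from 33.62 to 61.74 TPM. TIMP3 was at 558.97 TPM in NC ULB replicate 7, with the others from 285.29 to 334.86 TPM. PCGs held 93.3%, 92.4% and 94.4% of the TPM in these libraries.

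A difference between nutritional conditions varied among ATs for TIMP4 from NC to WG (interaction adjusted p = 0.0195, edgeR) and for MMP19 from WG to WL (adjusted p = 0.00447, edgeR).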

How the results depend on the processing

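Only with libraries of 88% PCG share or more, calls numbered 3 for NC against WG, 8 between ATs in NC, 5 between ATs in WL and 0 for the interaction (edgeR, 2 of 27 at an unadjusted p under 0.05, chosen after seeing the data). With the PCG share as a term, 3 calls of WG against WL were made. Without the fold limit, 33 tests between ATs in WG were called. For the A-B index, a difference above 0.75 left 4 calls for NC against WG, 1 for WG against WL and 9 between ATs in WG, and quantile normalization gave 5 for NC against WG. Leaving out 1 NC ULB library gave 9 to 10 calls for NC against WG, 9 to 10 for NC against WL, 14 to 16 between ATs in NC, 2 for the interaction and 9 to 10 for the A-B index. With the replicate number as a block, 14, 21 and 16 tests between ATs were called in NC, WG and WL, and 26 for the A-B index in WG. No direction of a called result reversed under the alternatives run. Groups of few NC libraries limit what could be called, and the causes of the lost calls were not tested.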

Other observations

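Members were compared with each other by Pearson's r of log2(TPM + 1) over all RNA-seq libraries, as a description with no test, since libraries share pigs, ATs and PCG share. MMP2 and MMP14 had r = 0.66, and 0.44 after group means were removed. MMP2 and TIMP1 had r = 0.26, and 0.75 after group means were removed, so the protease and its inhibitor differed in the order of the ATs while they varied together among libraries of 1 group. MMP2 and TIMP3 had 0.39 and 0.74, TIMP1 and TIMP3 0.61 and 0.62, and MMP9 and ADAM28 0.51 and 0.39.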
